A study of Homo sapiens with 6 samples.

Results

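The genes described here are the extracellular and receptor-level components of the Wnt pathway together with AXIN and the TCF/LEF factors. They were chosen by gene symbol, with no measured value in the rule: every WNT, FZD, SFRP, DKK, RSPO and LGR4 to LGR6 gene on the array, plus LRP5, LRP6, ROR1, ROR2, RYK, WIF1, FRZB, AXIN1, AXIN2, LEF1 and the TCF7 family. Earlier results of these data were known when this choice was made. The rule found 54 of the 17687 measured genes, namely 18 Wnt ligands, 9 Frizzled receptors, 5 coreceptors, 10 secreted antagonists, 7 R-spondins or LGR receptors and 5 AXIN or TCF/LEF genes. TCF7 and other family members that carry no named probe set were not analysed here. Their expression was read from Affymetrix Clariom S arrays, 1 for each sample, in 3 CD109-KO lines of A431 cells (clones 26, 32 and 180) and in 3 samples of parental, wild-type A431 cells (5, 2 and 6). A431 is an established human line of epidermoid, that is squamous, carcinoma. The CD109-KO lines came from single sorted cells after CRISPR/Cas9 cutting at exon 1 or exon 2 of CD109, so that each array is 1 clone, and CD109 encodes a GPI-anchored surface protein that restrains TGF-β signalling. Whether the numbered parental samples were separate cultures is not stated in the labels, and p-values therefore cover the spread between these 6 samples only. Precision is limited by the number of arrays.

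Wnt proteins are lipid-modified secreted ligands that bind Frizzled receptors. With the coreceptors LRP5 or LRP6 they stop the AXIN, APC and GSK3 destruction complex from degrading β-catenin, which then acts through TCF/LEF factors on target genes. With ROR1, ROR2 or RYK, other Wnt proteins act on cell polarity and movement without β-catenin. SFRP proteins and WIF1 bind the ligands themselves, most DKK proteins block LRP5 and LRP6, and R-spondins act through LGR receptors to keep Frizzled receptors at the cell surface. In squamous epithelia these signals are known for their part in stem cell maintenance and hair follicle formation.

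Values are the deposited log2 signals, and a difference is the CD109-KO minus the parental mean on this scale. Calls required a fold change of 2 and an adjusted p of 0.01 by limma, with Benjamini-Hochberg adjustment over all gene probe sets. As background served, for each array, the level that 95% of its 348 olfactory receptor probe sets did not exceed, and it lay between 5.51 and 5.71 in CD109-KO arrays and between 4.07 and 4.20 in parental arrays. The targeted gene CD109 measured 3.45 to 3.64 in the CD109-KO clones and 7.57 to 8.13 in the parental samples. Of 10 listed squamous markers 7 were measured, and all 7 were lower in CD109-KO cells, with log2 sums of 9.85 to 10.01 against 13.37 to 13.65 in parental cells. EPCAM, CDH1 and DSG3 among them were not above the background in any CD109-KO array. Of 9 measured fibroblast markers 7 were higher and 1 was lower, with sums of 11.97 to 12.20 in CD109-KO cells against 8.24 to 8.57 in parental cells. All 6 smooth muscle markers were higher too (sums 9.60 to 9.72 against 6.95 to 7.61), as were 4 of 6 endothelial (8.34 to 8.44 against 7.02 to 7.07) and 5 of 6 neuronal markers (8.47 to 8.63 against 6.98 to 7.18). The counts were 3 of 5 for melanocytes (8.41 to 8.53 in CD109-KO cells against 7.30 to 7.47 in parental cells) and 3 of 5 for blood cells, where 1 was lower (8.09 to 8.14 against 9.57 to 10.24). Among all genes 36.2% were called higher and 26.8% lower. The part of the higher CD109-KO background in the marker rises was not tested. PDGFRA and FAP of fibroblasts, MYH11 and MYOCD of smooth muscle, PECAM1, KDR and TEK of endothelium, PTPRC of blood cells, STMN2 of neurons and TYR of melanocytes were above the background on no array. The part of these shifts in the Wnt results was not tested, and in such bulk RNA fewer cells of a type and less RNA per cell cannot be told apart.

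Of the 54 Wnt genes, 29 were higher in CD109-KO cells, 7 were lower and 18 did not pass. These are 53.7% and 13.0% of them, where 36.2% of all genes were called higher and 26.8% lower. Their median difference was 1.17, against 0.51 over all genes. The 3 clones lay wholly above the parental samples for 34 of the genes and wholly below for 9, or 63.0% and 16.7%, where 48.9% and 31.8% of all genes did so. Among the 29 genes called higher, 14 were above the background on all 3 CD109-KO arrays, which is 25.9% of the 54 and compares with 18.9% of all genes. Another 7 were below it on all 6 arrays (13.0% of the 54, against 11.8% of all genes), and 8 were above it on some CD109-KO arrays only (14.8%, against 5.52%). All 7 genes called lower were above the background on every parental array, as were 97.0% of all genes called lower. In all, 25 of the 54 exceeded the background on every CD109-KO array and 28 on every parental array, where 40.9% and 64.3% of all genes did, and 11 exceeded it on no array, as did 23.5% of all genes. SFRP2 and WNT5A, 2 of the 54, were above it in all clones and in no parental sample (0.792% of all genes). FZD6, DKK1 and ROR2, 3 of the 54, were above it in all parental samples and no clone (18.3% of all genes). For ROR2 the groups overlapped with a difference of -0.21, and the background differed between the groups.

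**Figure D1:**
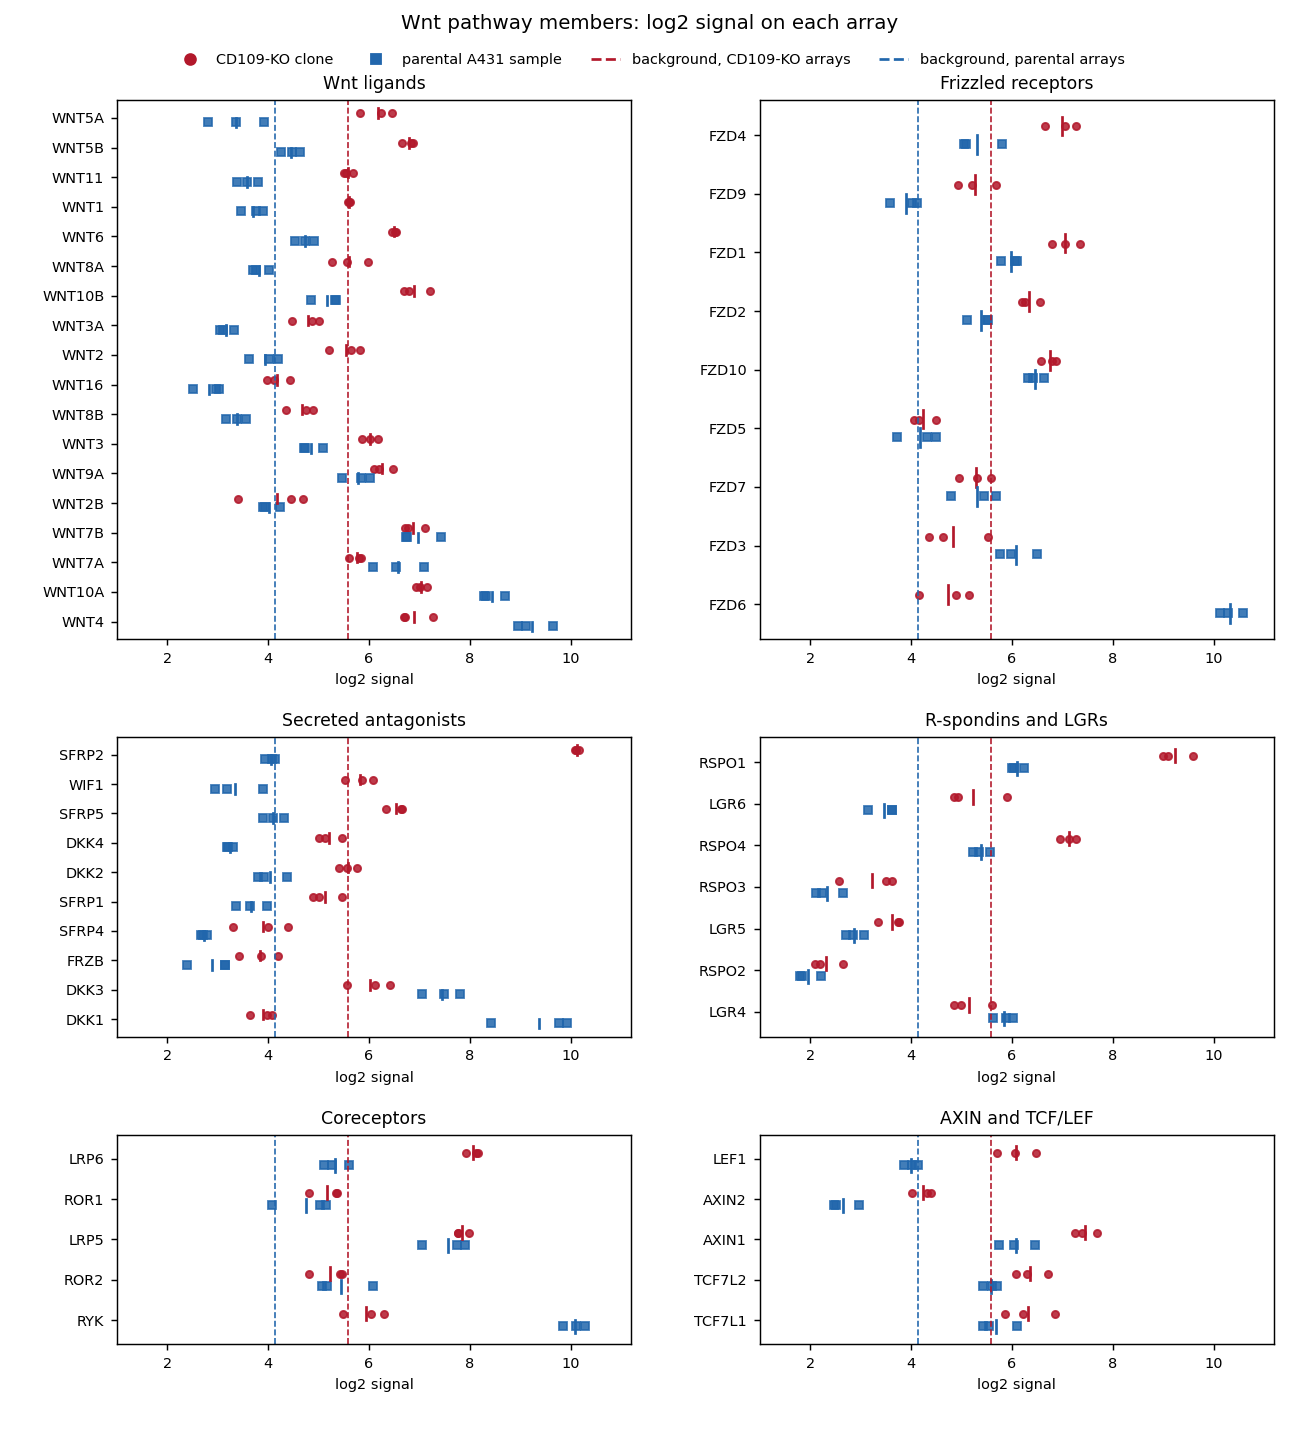
Log2 signal of each of the 54 Wnt genes on each array, in panels by role, with CD109-KO clones as circles, parental samples as squares, short bars at group means and dashed lines at the mean background of each group. SFRP2 lies at 10.09 to 10.16 in the clones and 3.93 to 4.14 in the parental samples, and many genes that were higher in CD109-KO cells lie near the CD109-KO background line.

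The level of dim signals itself differed between the groups. The array carries 23 antigenomic controls, probes of 25 bases that match no human sequence, graded from 3 to 25 G or C bases. The 11 controls with 15 or more such bases were higher on every CD109-KO array than on every parental array, by 1.44 to 1.77 on the log2 scale. The 5 controls with 10 to 14 were higher by 0.24 to 1.21, and the 7 with 3 to 9 by 0.07 to 0.16 with overlapping groups. The 348 olfactory receptor genes, most of which are known mainly from the nose although some are expressed in epithelial cells, had a median difference of 0.83. Of them 137 were called higher (39.4%, against 36.2% of all genes) and 0 lower (against 26.8%) by limma. Of the 29 Wnt genes called higher, 8 reached a fitted fold change of 4 (14.8% of the 54, against 6.37% of all genes), and WNT11 just missed it (a difference of 1.997). The part of the background shift in these rises was not tested. The base composition of the Wnt genes' probes is not known here. On every array of their group, only SFRP2 and RSPO1 in CD109-KO cells (3.70% of the Wnt genes, against 3.54% of all genes) exceeded all antigenomic controls. In parental cells WNT4, WNT10A, WNT7B, FZD6, LRP5, RYK, DKK1 and DKK3 did so (14.8%, against 24.8% of all genes).

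**Figure D2:**
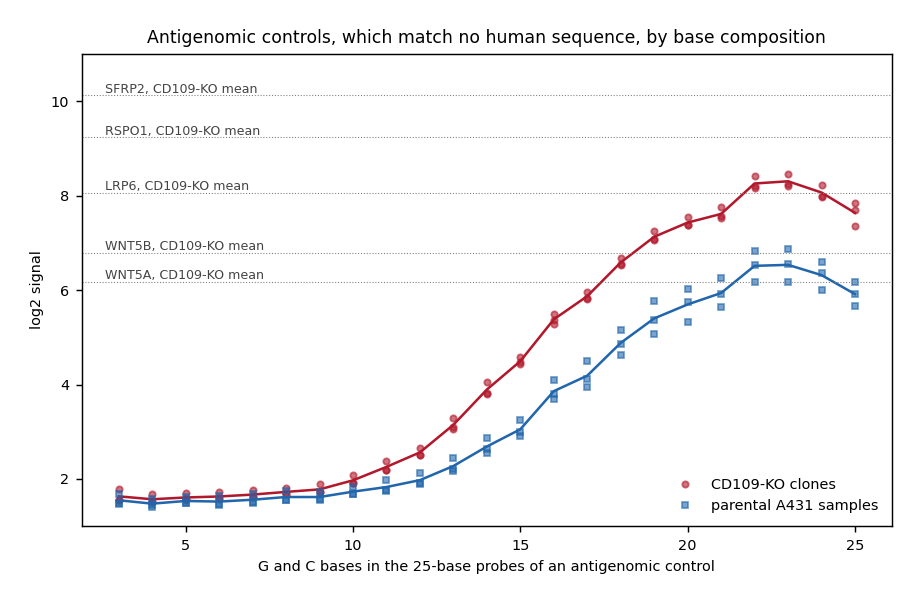
Log2 signal of the 23 antigenomic controls by the number of G and C bases in their probes, for the 3 CD109-KO arrays (circles) and 3 parental arrays (squares) with lines through the group means, and dotted lines at the CD109-KO means of 5 Wnt genes. The groups part above 9 such bases and lie 1.44 to 1.77 apart from 15 bases on.

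How many Wnt genes were called depended on how the arrays were scaled. There were 29 higher and 7 lower as deposited, 26 and 6 after a repeated quantile normalization, and 45 and 3 after centring on housekeeping genes, which every human cell needs. Centring on hybridization controls left 11 higher and 9 lower, and centring on olfactory receptor genes gave the same counts. After centring on antigenomic controls 7 were higher and 13 lower, and the median of the 54 genes was then -0.03, beside -0.70 over all genes. This centring used the median control of each array and took 1.21 off every difference. Controls with 15 or more G or C bases differed by more, 1.44 to 1.77, and no scaling removed a shift of that size. Under all 6 scalings 7 genes were called higher, namely SFRP2, RSPO1, WNT5A, LRP6, WIF1, SFRP5 and WNT5B, which is 13.0% of the 54 where 3.13% of all genes and 1.15% of the olfactory receptor genes were. The genes called lower under all 6 were FZD6, DKK1 and RYK, or 5.56% where 11.7% of all genes were. These are the genes higher after centring on antigenomic controls and lower after centring on housekeeping genes, the settings with the fewest calls in each direction. The other 44 genes were not called in 1 direction throughout.

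**Figure D3:**
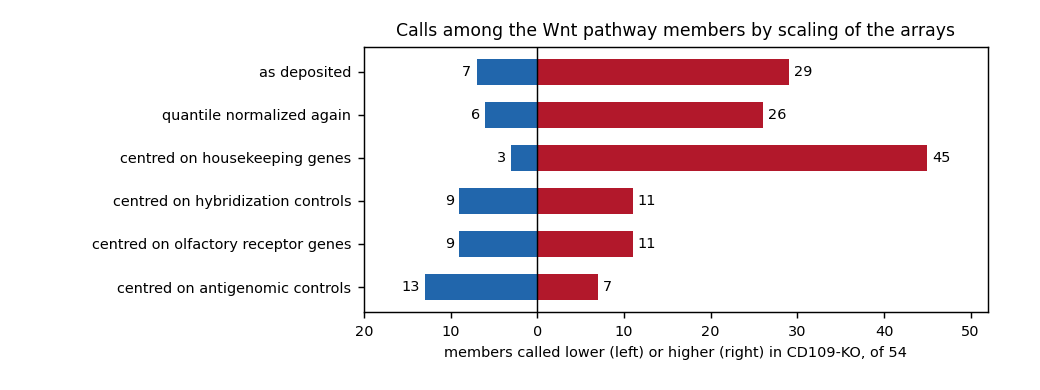
Number of the 54 Wnt genes called lower (bars to the left) and higher (bars to the right) in CD109-KO cells under each scaling of the arrays. The count ranges between 7 and 45 higher, and between 3 and 13 lower.

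The stretch before the RefSeq transcript start (GRCh38.p14) is shown for 2 of the genes that were higher and 2 that were lower under all 6 scalings, so that their sequence can be set beside the change. Each is 250 bases, 5′ to 3′ on the gene's strand, and capitals mark TCF/LEF motif letters (AACAAAG, with ATCAAAG, with TACAAAG or with TTCAAAG as its other forms, on either strand) and TATAAA on the gene's strand. SFRP2 is at chr4:153789084-153789333 and RSPO1 at chr1:37634893-37635142, both on the minus strand. DKK1 is at chr10:52314031-52314280 on the plus strand and RYK at chr3:134250860-134251109 on the minus strand.
SFRP2: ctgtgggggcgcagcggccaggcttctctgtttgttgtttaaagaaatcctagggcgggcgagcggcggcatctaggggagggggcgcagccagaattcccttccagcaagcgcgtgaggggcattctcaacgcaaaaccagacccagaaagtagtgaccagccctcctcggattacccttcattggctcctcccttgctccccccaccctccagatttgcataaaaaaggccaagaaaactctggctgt
RSPO1: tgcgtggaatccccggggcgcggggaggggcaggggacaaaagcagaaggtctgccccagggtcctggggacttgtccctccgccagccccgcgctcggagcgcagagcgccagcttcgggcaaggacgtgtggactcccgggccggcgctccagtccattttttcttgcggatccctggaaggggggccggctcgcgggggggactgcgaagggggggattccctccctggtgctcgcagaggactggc
DKK1: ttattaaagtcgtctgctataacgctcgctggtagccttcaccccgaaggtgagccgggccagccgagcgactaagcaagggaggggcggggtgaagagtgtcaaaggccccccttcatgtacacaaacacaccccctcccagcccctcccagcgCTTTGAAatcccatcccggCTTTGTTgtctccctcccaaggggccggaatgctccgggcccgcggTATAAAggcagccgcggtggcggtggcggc
RYK: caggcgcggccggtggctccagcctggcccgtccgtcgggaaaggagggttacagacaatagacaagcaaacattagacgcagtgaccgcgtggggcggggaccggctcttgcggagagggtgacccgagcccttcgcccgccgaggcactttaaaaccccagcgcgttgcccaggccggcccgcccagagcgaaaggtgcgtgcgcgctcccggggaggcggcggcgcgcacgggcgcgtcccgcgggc
DKK1 held CTTTGAA 95 bases and CTTTGTT 76 bases before the start, and TATAAA 30 bases before it. These letters occur in none of the other 3 stretches. RefSeq windows of 300 bases (250 before to 50 after the start) were at hand for 38 of the 54 genes, 45 windows in all, and the TCF/LEF letters were found in 3 of them (6.67%, in DKK1, TCF7L2 and WNT3), against 13.8% of all 35116 windows. The E-box CACCTG, in either direction, was found in 7 (15.6%, against 20.6%), which belong to AXIN1, FZD5, SFRP5, WNT2B, WNT3A, WNT5A and WNT7A. TATAAA was in 1 window (2.22%, against 7.33%), that of DKK1. Matches are descriptions of letters and not of binding. The median GC content was 66.3% in the Wnt windows and 58.7% in all windows.

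Among the 18 ligands 12 were higher (66.7%, against 36.2% of all genes), 2 were lower (11.1%, against 26.8%) and 4 did not pass. WNT5A, the best known ligand of the branch without β-catenin, lies on chromosome 3 (55465715 to 55505263). It measured 6.24, 5.82 and 6.46 in the CD109-KO clones 26, 32 and 180, and 3.93, 2.80 and 3.37 in the parental samples 5, 2 and 6. Every clone was above the background and every parental sample below it, with a measured difference of 2.81 (standard error 0.30, adjusted p = 1.08e-05 from limma). On the deposited scale, and against the background of the parental arrays, WNT5A was at least 4.10-fold higher in CD109-KO cells. For such a bound, each array of the dimmer group was given the background where the gene's own value lay under it. The group means were then compared. Every such bound holds for the deposited scale only. It does not adjust for the difference in background between the groups, and another scaling can give a smaller fold. The close relative WNT5B (chromosome 12, 1617056 to 1647212) measured 6.87, 6.66 and 6.82 in the clones and 4.63, 4.26 and 4.47 in the parental samples. It was above the background on all 6 arrays with no overlap of the groups, 5.04-fold higher in CD109-KO cells (difference 2.33, standard error 0.22, adjusted p = 3.87e-06 from limma). Both kept their call under every scaling, with differences of 1.60 to 4.36 for WNT5A and 1.13 to 3.88 for WNT5B.

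WNT11, which guides cell movements in vertebrate embryos, measured 5.50, 5.69 and 5.54 in the CD109-KO clones and 3.58, 3.79 and 3.38 in the parental samples (difference 2.00, adjusted p = 1.19e-05 from limma). The groups did not overlap, but only 1 clone and no parental sample exceeded the background, and the call ended after centring on antigenomic controls (0.79). WNT6, WNT10B and WNT3 were above the background on all 6 arrays, and their differences were 1.78, 1.73 and 1.18. None of these kept its call under all 6 scalings, where their lowest differences were 0.58, 0.52 and -0.03. WNT10B and WNT3 are ligands of the β-catenin branch. WNT1, the founding member of the family, and WNT8A exceeded the background in 2 clones each, WNT2 in 1, and none of them in a parental sample, with differences of 1.90, 1.78 and 1.61. WNT3A, WNT16 and WNT8B passed the test while below the background on all 6 arrays, so that no fold is given for them.

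The ligands called lower were WNT4 and WNT10A. WNT4, known for its part in the formation of the kidney and the female reproductive tract, lies on chromosome 1 (22117313 to 22143097). It measured 6.69, 7.28 and 6.71 in the CD109-KO clones and 8.96, 9.65 and 9.11 in the parental samples, all above the background. The highest clone lay well under the lowest parental sample, and WNT4 was 5.08-fold lower in CD109-KO cells (difference -2.35, standard error 0.27, adjusted p = 1.53e-05 from limma). WNT10A, a ligand needed for teeth and hair follicles, measured 7.01, 6.93 and 7.15 in clones against 8.29, 8.70 and 8.33 in the parental samples (difference -1.41, standard error 0.22, adjusted p = 0.000157 from limma). Neither call held after centring on housekeeping genes (-0.80 for WNT4, 0.14 for WNT10A), and that of WNT10A did not hold after a repeated quantile normalization (-0.75).

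The ligands that did not pass were WNT9A, WNT2B, WNT7B and WNT7A. Their differences, with 95% intervals, were 0.48 (-0.04 to 1.001), 0.16 (-0.54 to 0.86), -0.11 (-0.68 to 0.45) and -0.82 (-1.42 to -0.21). WNT7A, an epithelial ligand known from limb patterning, was lower in every CD109-KO clone (5.61 to 5.84) than in every parental sample (6.08 to 7.10), and passed without parental sample 5 (-1.06). WNT2B had the widest spread among the clones of any of the 54 genes, with 3.40 in clone 26 against 4.69 and 4.45 in clones 32 and 180.

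**Figure D4:**
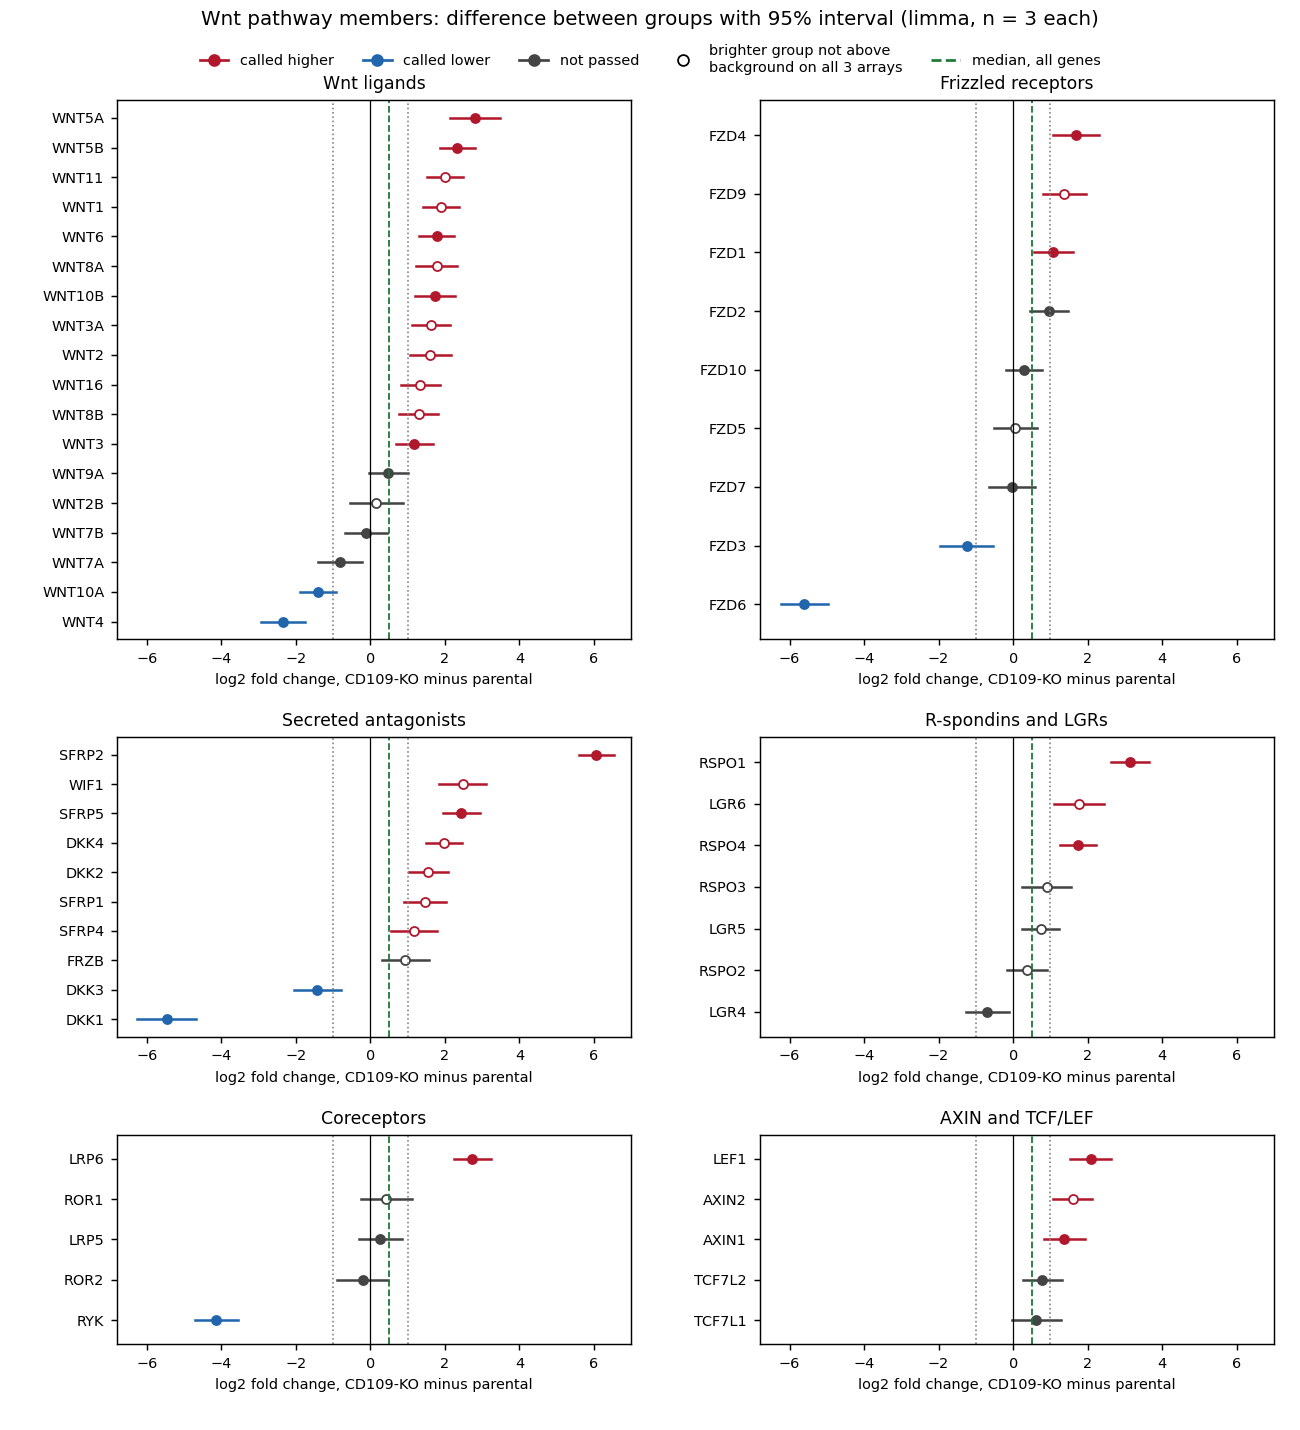
Difference in log2 signal, CD109-KO minus parental, of each of the 54 Wnt genes with its 95% interval from limma (n = 3 each), coloured by call, with open symbols where the brighter group was not above the background on all 3 arrays. The dotted lines mark a fold change of 2 and the dashed line the all-gene median of 0.51, and FZD6 at -5.60, DKK1 at -5.47 and SFRP2 at 6.07 lie farthest out.

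Of the 9 Frizzled receptors 3 were higher and 2 were lower, or 33.3% and 22.2%, near the 36.2% and 26.8% of all genes. The other 4 did not pass, and the median difference of the 9 was 0.29. FZD6, a receptor that orients hair follicles in mouse skin, lies on chromosome 8 (103298494 to 103332866) and had the largest difference of the 54 genes downwards. It measured 5.15, 4.88 and 4.16 in the CD109-KO clones, all below the background, and 10.13, 10.28 and 10.58 in the parental samples. FZD6 was at least 26.8-fold lower in CD109-KO cells (measured difference -5.60, standard error 0.28, adjusted p = 7.44e-08 from limma), and the difference ranged between -6.81 and -4.05 over the 6 scalings. FZD3, a receptor of axon guidance and also on chromosome 8, measured 4.63, 5.52 and 4.35 in clones and 5.98, 5.76 and 6.50 in the parental samples. Only clone 32 among the clones exceeded the background. The groups stood close, with clone 32 not far below parental sample 2 (difference -1.25, standard error 0.32, adjusted p = 0.00418 from limma). This call was lost without clone 26 (-1.14), without clone 180 (-1.004), without parental sample 5 (-1.30) without parental sample 6 (-1.04) and with the methods' t-test (adjusted p = 0.0564), and the sign turned after centring on housekeeping genes (0.30).

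FZD4, the receptor for norrin in retinal vessels, measured 7.06, 6.66 and 7.28 in the CD109-KO clones and 5.05, 5.81 and 5.08 in the parental samples, all above the background. The groups did not overlap, with a 3.21-fold higher level in CD109-KO cells (difference 1.68, standard error 0.28, adjusted p = 0.000194 from limma). FZD9 measured 5.69, 4.93 and 5.22 in clones and 4.13, 4.02 and 3.58 in the parental samples, and exceeded the background in clone 26 alone (difference 1.37, adjusted p = 0.000612 from limma). FZD1 was above the background on all arrays (difference 1.08, adjusted p = 0.00138 from limma) and lost its call without clone 26 (0.94) or parental sample 6 (0.98). These 3 calls were all lost after centring on antigenomic, hybridization or olfactory receptor probe sets, and with the methods' t-test (adjusted p = 0.0117, 0.0154 and 0.0106).

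FZD2 stood just short of a fold change of 2 (difference 0.96, adjusted p = 0.00269 from limma) although its groups did not overlap. It passed without clone 32 (1.002), clone 180 (1.03), parental sample 2 (1.03) or parental sample 5 (1.02). FZD10, FZD5 and FZD7 did not pass, with overlapping groups and differences of 0.29 (95% interval -0.19 to 0.77), 0.05 (-0.52 to 0.63) and -0.03 (-0.65 to 0.59).

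The coreceptors differed in direction. LRP6, which passes the signal to AXIN when a ligand is bound, lies on chromosome 12 (12116025 to 12267044). It measured 7.91, 8.11 and 8.17 in the CD109-KO clones and 5.27, 5.60 and 5.11 in the parental samples. All 6 arrays were above the background and the clones lay far above the parental samples, with a 6.67-fold difference (2.74 on the log2 scale, standard error 0.23, adjusted p = 1.63e-06 from limma) that ranged between 1.53 and 4.29 over the scalings. Its relative LRP5 measured 7.77, 7.97 and 7.76 in clones and 7.74, 7.91 and 7.05 in the parental samples, with overlapping groups and a difference of 0.27 (95% interval -0.30 to 0.84).

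RYK, a receptor with an inactive kinase domain that binds Wnt proteins outside the cell, lies on chromosome 3 (134157133 to 134250859). It measured 6.05, 5.48 and 6.30 in the CD109-KO clones and 10.28, 9.85 and 10.10 in the parental samples. Clone 32 was below the background and the other clones above it, and RYK was at least 17.4-fold lower in CD109-KO cells (measured difference -4.13, standard error 0.26, adjusted p = 2.56e-07 from limma). Over the 6 scalings the difference ranged between -5.34 and -2.58. ROR1 and ROR2, receptors for WNT5A, did not pass, and no CD109-KO clone exceeded the background for either. Their differences were 0.43 (95% interval -0.25 to 1.11) and -0.21 (-0.88 to 0.46), and ROR2 was above the background in all parental samples.

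**Figure D5:**
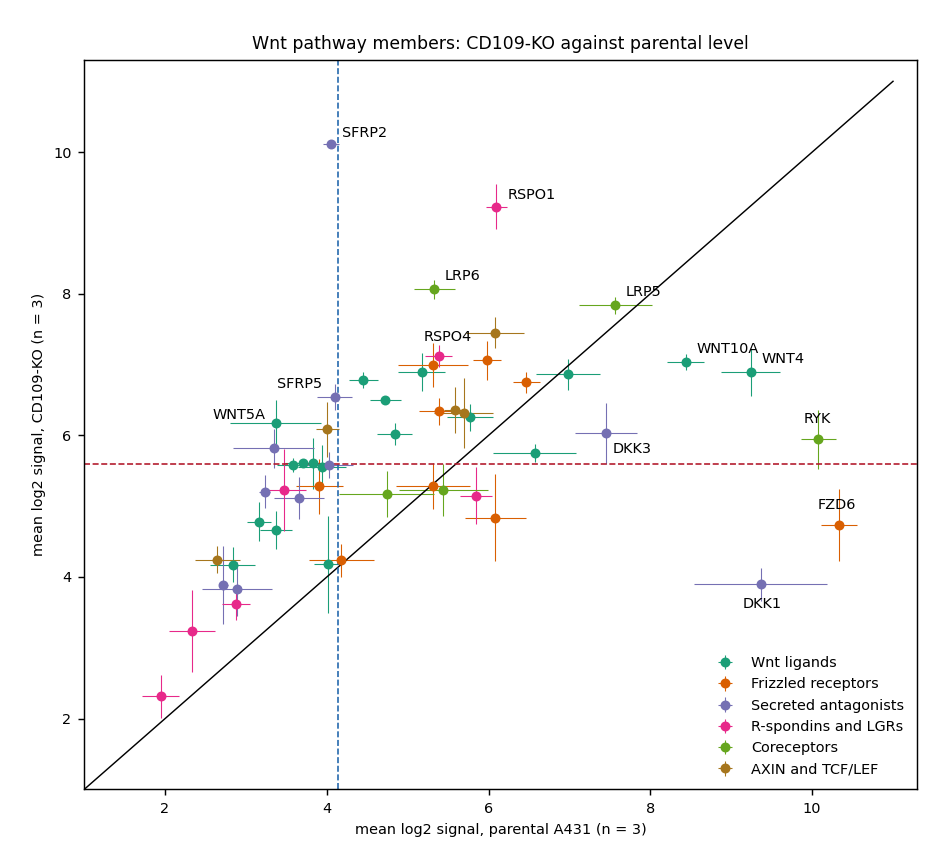
Mean log2 signal of each of the 54 Wnt genes in CD109-KO cells (vertical axis) against parental cells (horizontal axis), with SDs as bars (n = 3 each), colours by role, the diagonal of equal signal and dashed lines at the mean background of each group. FZD6, DKK1 and RYK lie below the diagonal at the right and SFRP2, RSPO1 and LRP6 above it.

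Of the 10 secreted antagonists 7 were higher, beside 36.2% of all genes, 2 were lower, beside 26.8%, and 1 did not pass. Of the 7 higher ones 2 were above the background in all clones and 2 in some clones only. The other 3 were below it on all 6 arrays. Of the olfactory receptor genes 39.4% were called higher. SFRP2, which binds Wnt proteins outside the cell and is known from fibroblasts and other mesenchymal cells, lies on chromosome 4 (153780591 to 153789083). It measured 10.16, 10.11 and 10.09 in the CD109-KO clones and 4.08, 4.14 and 3.93 in the parental samples. The clones differed from each other by less than 0.1, the parental samples were all below the background, and the difference stayed between 4.86 and 7.62 over the 6 scalings (6.07 as deposited, standard error 0.21, adjusted p = 2.58e-08 from limma). SFRP5, of the same family, measured 6.33, 6.64 and 6.66 in clones and 4.09, 4.32 and 3.89 in the parental samples. Every clone and 1 parental sample exceeded the background, and SFRP5 was at least 5.14-fold higher by the same bound as for WNT5A (measured difference 2.44, standard error 0.23, adjusted p = 3.81e-06 from limma). WIF1, another binder of Wnt ligands, measured 5.85, 6.08 and 5.52 in clones and 3.18, 3.90 and 2.95 in the parental samples (difference 2.47, standard error 0.28, adjusted p = 1.64e-05 from limma). Clones 26 and 32 exceeded the background, clone 180 did not, and no parental sample did.

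The other SFRP genes were dim. SFRP1 and SFRP4 passed the test and FRZB, the third SFRP, did not (adjusted p = 0.0104 from limma), and all were below the background on all 6 arrays. The call of SFRP4 was lost without clone 26 (0.92), clone 32 (1.12), parental sample 5 (1.14) or parental sample 6 (1.17), and with the methods' t-test. FRZB passed without clone 32 (1.14) or parental sample 2 (1.06).

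DKK1, a blocker of LRP5 and LRP6 and itself a known β-catenin target, lies on chromosome 10 (52314281 to 52317657). It measured 3.98, 4.08 and 3.63 in the CD109-KO clones, all below the background, and 9.76, 8.42 and 9.92 in the parental samples. Parental sample 2 was the lowest of its group, which gave DKK1 the widest parental spread of the 54 genes (SD 0.82), but it lay far above every clone. DKK1 was at least 13.70-fold lower in CD109-KO cells (measured difference -5.47, standard error 0.36, adjusted p = 3.26e-07 from limma), and the difference was -6.67 to -3.92 over the scalings. DKK3, a divergent relative not known to bind LRP6, measured 6.41, 5.55 and 6.12 in clones and 7.04, 7.81 and 7.50 in the parental samples, 2.68-fold lower with no overlap (difference -1.42, adjusted p = 0.000842 from limma). The call of DKK3 ended with the methods' t-test and after centring on housekeeping genes (0.13). DKK2 passed the test with 2 clones and 1 parental sample above the background (difference 1.55, adjusted p = 0.000125 from limma), and DKK4 passed it below the background on all 6 arrays.

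Among the R-spondins and their LGR receptors 3 of 7 were higher (42.9%, against 36.2% of all genes) and 0 were lower (against 26.8%). RSPO1 lies on chromosome 1 (37611350 to 37634892) and encodes an R-spondin that acts with Wnt ligands in ovary formation. It measured 9.10, 9.59 and 8.998 in the CD109-KO clones and 6.00, 6.24 and 6.04 in the parental samples. All 6 arrays were above the background without overlap, and RSPO1 was 8.77-fold higher in CD109-KO cells (difference 3.13, standard error 0.24, adjusted p = 8.06e-07 from limma, 1.93 to 4.68 over the scalings). RSPO4, needed for nail formation, measured 7.28, 7.13 and 6.96 in clones and 5.22, 5.56 and 5.36 in the parental samples, 3.35-fold higher (difference 1.74, standard error 0.22, adjusted p = 3.15e-05 from limma). Its call ended after centring on antigenomic (0.54), hybridization (0.91) or olfactory receptor (0.87) probe sets.

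LGR6, a marker of stem cells in mouse skin, measured 5.90, 4.94 and 4.84 in the CD109-KO clones and 3.63, 3.63 and 3.15 in the parental samples (difference 1.76, adjusted p = 0.00028 from limma). Clone 26 stood above the other clones and was the only array above the background. The call of LGR6 was lost with the methods' t-test (adjusted p = 0.0172) and after centring on antigenomic (0.55), hybridization (0.92) or olfactory receptor (0.89) probe sets. LGR5 and RSPO3 were below the background on all arrays and did not pass (adjusted p = 0.0114 and 0.0171 from limma), and RSPO3 passed without clone 180 (1.23). RSPO2 was below it on all arrays too (adjusted p = 0.187 from limma). LGR4, the most widely expressed of the receptors, had a difference of -0.69 (95% interval -1.26 to -0.13, adjusted p = 0.0284 from limma).

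Of the AXIN and TCF/LEF genes 3 of 5 were higher. LEF1, a nuclear partner of β-catenin known from hair follicles and mesenchymal cells, measured 6.06, 5.71 and 6.49 in the CD109-KO clones and 4.14, 4.01 and 3.86 in the parental samples. All clones but only parental sample 5 exceeded the background, and LEF1 was at least 3.85-fold higher with the other parental samples raised to the background (measured difference 2.08, standard error 0.25, adjusted p = 2.23e-05 from limma). Among the 6 scalings its call ended only with centring on antigenomic controls (0.87). AXIN1, the scaffold of the destruction complex, measured 7.69, 7.40 and 7.26 in clones and 6.04, 6.45 and 5.74 in the parental samples, 2.59-fold higher (difference 1.37, standard error 0.25, adjusted p = 0.000426 from limma). Its call ended after the 3 kinds of control centring and with the methods' t-test. AXIN2, a feedback target of β-catenin, measured 4.32, 4.39 and 4.02 in clones and 2.96, 2.47 and 2.51 in the parental samples. AXIN2 passed the test (adjusted p = 9.34e-05 from limma) with all 6 arrays below the background, so that no fold is given. TCF7L2 and TCF7L1 were above the background on all arrays and did not pass, with differences of 0.78 (95% interval 0.25 to 1.30) and 0.62 (-0.03 to 1.28).

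Of 74 other Wnt pathway genes listed, 68 were measured, and 29 of them were higher in CD109-KO cells, 20 were lower and 19 did not pass. These shares, 42.6% higher and 29.4% lower, stand beside 36.2% and 26.8% of all genes, and the median difference of 0.42 beside 0.51. CTNNB1, which encodes β-catenin, measured 5.62, 5.17 and 5.04 in the CD109-KO clones and 8.72, 9.25 and 9.49 in the parental samples. Only clone 26 exceeded the background among the clones, and the difference was -3.87 (adjusted p = 4.58e-07 from limma). WLS, the carrier that brings Wnt proteins to the cell surface, was at least 9.34-fold lower (measured difference -3.61, adjusted p = 1.07e-06 from limma), and was picked for mention after its values were seen. In the list for the destruction complex 4 of 13 genes were higher and 4 were lower, or 30.8% each, beside 36.2% and 26.8% of all genes. The higher ones were the casein kinase gene CSNK1D (2.58), APC2, AMER1 and TNKS. The lower ones were CTNNB1 itself, TNKS2, CSNK1A1 and GSK3B. The casein kinase gene CSNK1A1 had a difference of -2.65 (adjusted p = 2.5e-06 from limma) and was above the background on all 6 arrays. For GSK3B the difference was -1.22 (adjusted p = 0.00175 from limma). The call of GSK3B was lost after a repeated quantile normalization (-0.52) and with the methods' t-test, and its sign turned after centring on housekeeping genes (0.33). APC did not pass (0.57, adjusted p = 0.156 from limma) but did after that centring (2.12). The calls of CTNNB1, WLS and CSNK1D held under the 6 scalings.

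Of 10 nuclear cofactors 5 were higher and 0 were lower. TLE4, a corepressor that binds TCF/LEF factors, measured 6.65, 6.71 and 6.83 in the CD109-KO clones and 2.05, 1.86 and 2.32 in the parental samples, at least 6.04-fold higher (adjusted p = 6.55e-08 from limma). The corepressor genes TLE2 and TLE1 had differences of 3.09, with 2 clones and no parental sample above the background, and 2.28. Of 8 genes listed under signal transduction 7 were higher and 1 was lower. The higher ones were DVL2 (1.05), DACT1, DACT2, DACT3, NKD1, NKD2 and CTNNBIP1, and the lower one was DVL3 (-1.58). DACT1 was below the background on all 6 arrays. The list does not separate genes that pass the signal on from genes that restrain it, so its count gives no direction of signalling. Of 8 membrane and extracellular inhibitors 4 were higher and 1 was lower. Of 13 planar polarity genes 3 were higher (23.1%, against 36.2% of all genes) and 6 were lower (46.2%, against 26.8%). PRICKLE1 rose by 2.52, RHOA fell by 4.07 and RAC1 by 3.66, and DAAM1, which links Dishevelled to RHOA, was at least 6.48-fold lower (measured difference -4.04). The calls of these 3 TLE and 4 polarity genes held under the 6 scalings.

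Among 14 genes known as targets of β-catenin and TCF/LEF, 5 were higher, or 35.7% beside 36.2% of all genes, and 7 of the 14 were lower, beside 26.8% of all genes. The higher ones were SP5 (1.73) and ASCL2 (1.32), above the background on all 6 arrays, and TNFRSF19, BAMBI and TBXT. TNFRSF19 and BAMBI exceeded it in 1 clone each and TBXT on no array. Beside the cyclin D1 gene and MYC, the lower ones were CD44, MMP7, PPARD, JUN and FOSL1. AXIN2 and DKK1, named above as β-catenin targets, were not in this list. AXIN2 was called higher with all 6 arrays below the background, and DKK1 was called lower. The cyclin D1 gene and MYC are described here because the rule names them, and both were lower. The cyclin D1 gene CCND1 measured 6.81, 6.73 and 7.45 in the CD109-KO clones and 10.65, 10.34 and 11.17 in the parental samples, with a difference of -3.72 (adjusted p = 9.1e-07 from limma). MYC measured 6.88, 7.08 and 7.27 in clones and 8.74, 9.25 and 9.15 in the parental samples, with a difference of -1.97 (adjusted p = 2.07e-05 from limma). For both genes every clone lay below every parental sample and all arrays were above the background. The call of CCND1 held under the 6 scalings, whereas that of MYC was lost after centring on housekeeping genes (-0.42).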

How the data were processed

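RNA from the 3 CD109-KO clones and the 3 parental samples was hybridized to 6 Clariom S human arrays. The deposited values are log2 signals per probe set, pre-processed, background-corrected and normalized by the authors with Affymetrix Expression Console. Transcriptome Analysis Console and hg38 stand in the submitters' processing notes. Which normalization algorithm was run is not stated there.

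Of 24351 probe sets 2903 are controls, which were set aside, and the 21448 gene probe sets were fitted in limma 3.58.1 under R 4.3.3 (lmFit and eBayes, no covariate), with Benjamini-Hochberg adjustment over all of them. The script was tested on simulated data. Calls needed a fold change of 2 with an adjusted p of 0.01, the thresholds the study gives. The study applied them in Transcriptome Analysis Console. It reported fewer genes in each direction than were called here, with more lower than higher. Here the order was the reverse, with 6410 genes called higher and 4746 lower. The probe set with the highest mean stood for the 20 genes with several, none of them a Wnt gene described here. Symbols came from the platform annotation, and all 54 matched RefSeq by gene ID; coordinates are those of GRCh38.p14.

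The genes and lists were chosen with earlier results of these data known, and olfactory receptor centring and the count of genes whose brighter group exceeded the background were chosen after the data were seen. Per-sample values are given, in each role, for up to 4 called genes with the largest differences and non-overlapping groups and for the role's highest mean; of the other pathway genes, up to 5 called in each direction and CTNNB1, APC, GSK3B, MYC and CCND1 are named. Other genes are named so that each is accounted for, or so that the content of a list is shown. The alternatives were another prior, the methods' t-test, other scalings, a filter on dim probe sets, other thresholds, all probe sets of a gene, controls kept, and leaving out each array. The 300-base windows are from RefSeq.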

Additional observations from a re-analysis of the deposited data

How the results depend on the processing

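Calls of the Wnt genes (29 higher, 7 lower), of the other Wnt pathway genes (29 and 20) and of all genes (6410 and 4746) moved most with the scaling. Centring on housekeeping genes gave 45 higher and 3 lower Wnt genes, 45 and 10 other pathway genes, and 11807 and 2064 genes. Centring on antigenomic controls gave 7 and 13, 7 and 32, and 553 and 7504. Centring on hybridization controls gave 11 and 9, 10 and 25, and 1360 and 6061, and centring on olfactory receptor genes 11 and 9, 11 and 26, and 1609 and 6659. These settings moved the median difference of all genes by 1.55, -1.21, -0.84 and -0.87, by construction the same for every gene, and a repeated quantile normalization by -0.19. A fold change of 4 left 8 and 4 Wnt genes, 11 and 11 other pathway genes, and 1127 and 2978 genes. The filter on dim probe sets left 15, 19 and 3704 higher, and counting only genes whose brighter group exceeded the background left 14, 19 and 3347. The methods' t-test gave 23 higher and 5 lower Wnt genes, and 3140 lower genes in all. Leaving out 1 array gave 27 to 31 higher and 6 to 7 lower Wnt genes, 27 to 29 and 19 to 21 other pathway genes, and 5906 to 6606 and 4377 to 4910 genes. Of the alternatives' values for the Wnt genes with per-sample values under the naming rule, 296 kept direction and call, 38 kept only the direction, and 1 turned sign, FZD3 after centring on housekeeping genes (0.30). The cause of these changes was not tested beyond the size of each shift. No paired analysis was possible because the groups share no replicate number in the labels. Signals near the background of 5.51 to 5.71 in CD109-KO arrays and 4.07 to 4.20 in parental arrays limit what can be said of dim genes.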
